A study of Mus musculus with 8 samples.

Results

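This section concerns 10 genes of the insulin-like growth factor (IGF) system: the ligand gene Igf1, the receptor gene Igf1r, the binding protein genes Igfbp2 to Igfbp7, and Pappa and Pappa2, which encode proteases that cut binding proteins. They were chosen by name, as members of the IGF system, with earlier results of these data known. Each was found by its Entrez identifier among the 36528 identifiers of the deposited count files. All 10 passed the filter on low counts that left 16929 genes for testing. Poly(A) RNA was sequenced from primary mesothelial cells, the lining cells of body cavities, which were obtained from mouse omentum. The 8 libraries comprised 4 with the WT genotype and 4 with the genotype BAP1 KO, in which the tumour suppressor BAP1, a deubiquitinase acting on histone H2A, is knocked out. The labels give no strain, age, Cre driver, deleted exon or number of animals. Separate animals or cultures are not named for the libraries, so each p-value below reflects library-to-library spread that may be technical.

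IGF1 is a secreted hormone of the insulin family that binds the receptor tyrosine kinase IGF1R and drives growth and survival, largely through PI3K, AKT and mTOR. Outside the cell most IGF is held by IGF-binding proteins, which can keep it from the receptor or deliver it. Proteases release it again: PAPP-A cuts IGFBP4 and IGFBP5, PAPP-A2 cuts IGFBP3 and IGFBP5, and stanniocalcins inhibit both proteases. Macrophages and fibroblasts are known sources of Igf1 in tissues.

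Library totals lay between 67.1 and 84.9 M counts, more than the read number that the protocol states, and the members' counts per library ran from 131 for Pappa2 to 102201 for Igfbp3. Bap1 stood at 63.1, 62.6, 62.9 and 64.2 CPM (counts scaled to library depth) in the WT libraries 1 to 4 and at 54.0, 53.1, 52.0 and 53.7 CPM in the BAP1 KO libraries 1 to 4, so all BAP1 KO libraries lay below WT, with a mean still at 84.2% of WT. A count for a whole gene cannot show whether a deleted exon is missing. Markers of the labelled cell type were present: of 10 mesothelial markers 4 were higher in BAP1 KO (Wt1 from 121 to 166 CPM, for example), 4 were lower (Krt18 from 11.7 to 4.47 CPM) and 2 were not called (Upk3b at 462 and 464 CPM), and their summed level went from between 1146 and 1177 to between 1224 and 1230.0 CPM. Markers of other cells were present too. Of 6 smooth muscle and pericyte markers 2 were higher and 2 lower, with summed levels of 8861 to 9288 CPM in WT and 9088 to 9214 CPM in BAP1 KO. Of 5 tested adipocyte markers 3 were higher (Adipoq from 3.72 to 5.21, Plin1 from 3.01 to 6.77 and Cidec from 0.173 to 0.525 CPM) and 2 were lower (Fabp4 from 55.3 to 42.3 and Pparg from 12.1 to 10.9 CPM), while Lep had 0 counts in every library; the summed level went from between 72.9 and 75.3 to between 64.3 and 67.3 CPM. Of 5 tested endothelial markers 4 were lower, with summed levels of 29.0 to 29.9 and 18.5 to 19.6 CPM, and of 3 tested lymphocyte markers 1 was higher, with summed levels of 1.6 to 1.85 and 1.93 to 2.47 CPM. Macrophage and fibroblast markers are given beside Igf1. The marker calls used edgeR's quasi-likelihood test with an adjusted p below 0.05. By the same test 61.1% of all genes tested were called, 29.0% higher and 32.1% lower. The part of any of these cell types in the results was not tested. Wt1, Krt18, Plin1, Adipoq and Cidec were named after their values were seen. In bulk RNA, fewer cells of a type and less RNA per cell cannot be told apart, so no change below is assigned to a cell type.

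The ligand and its receptor differed little between the genotypes, while most genes for binding proteins and their proteases changed. Across the 10 members, 5 were higher in BAP1 KO (Igfbp4, Igfbp5, Igfbp6, Igfbp7 and Pappa), 2 were lower (Igfbp2 and Pappa2) and 3 were not called (Igf1, Igf1r and Igfbp3), by edgeR's quasi-likelihood test with an adjusted p below 0.05. The share called, 7 of 10, stands beside 61.1% of all genes tested (29.0% higher and 32.1% lower), so being called does not set the members apart. The libraries of the genotypes did not overlap for these 7 members, against 53.8% of all genes tested. The median log2 fold change (BAP1 KO minus WT) was 0.04 over the members and 0.00 over all genes tested. The median absolute log2 fold change was 0.31 against 0.18. The members were chosen with earlier results known, so these comparisons with all genes describe the members and test nothing. Against a 1.5-fold change, Igfbp5 and Igfbp6 passed, both higher, while 8.18% of all genes tested passed in either direction and 2.19% passed higher.

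**Figure D1:**
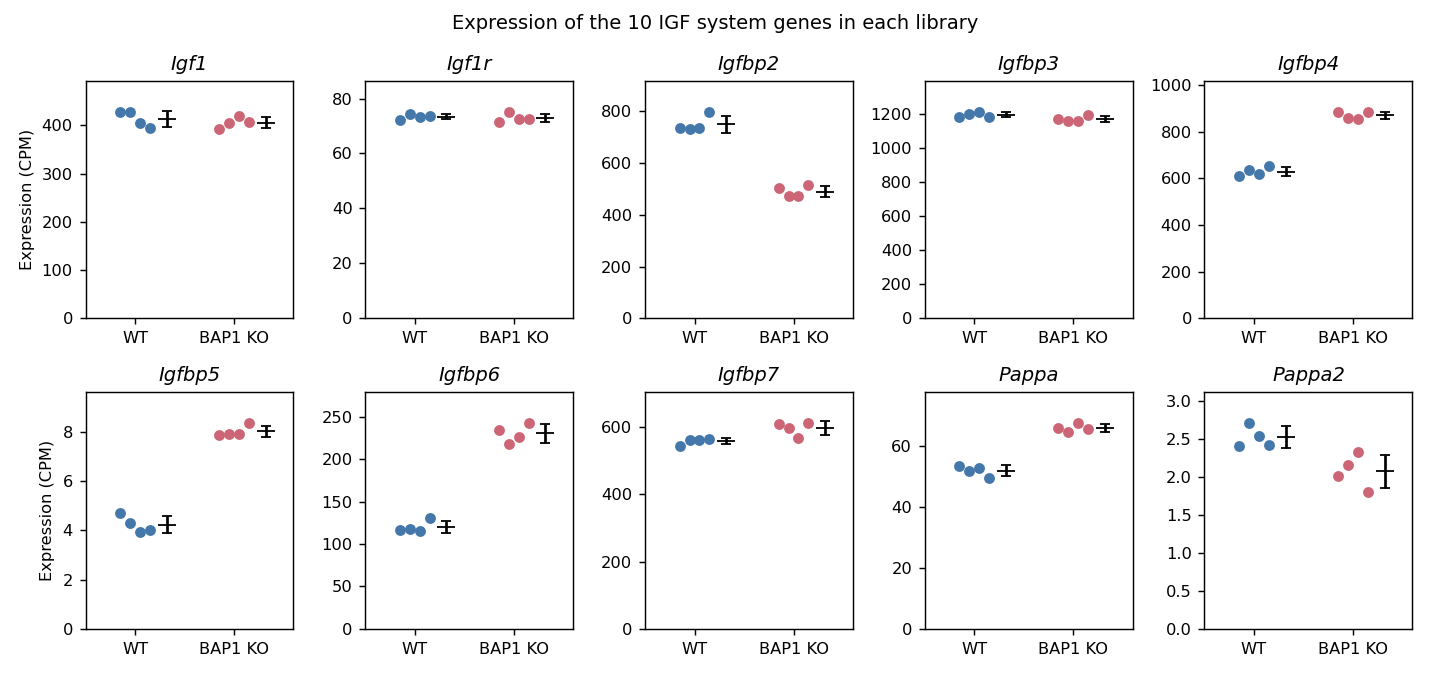
Expression of each of the 10 genes in CPM (vertical axes, starting at 0) in the 4 WT and 4 BAP1 KO libraries. Each point is a library and the bars are the mean and SD; the genotypes lie apart for Igfbp2, Igfbp4, Igfbp5, Igfbp6, Igfbp7, Pappa and Pappa2 and overlap for Igf1, Igf1r and Igfbp3.

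Igf1 (Entrez 16000; GRCm38 chromosome 10, 87858265 to 87937047, plus strand) was abundant in both genotypes. It stood at 428, 428, 406 and 394 CPM in WT libraries 1 to 4 and at 393, 405, 420.4 and 407 CPM in BAP1 KO libraries 1 to 4. The genotypes overlapped, with the highest values in WT libraries 1 and 2. The log2 fold change was -0.03 ± 0.03 (SE; adjusted p = 0.36), and its 95% interval reached from 5.3% below to 1.7% above the WT level. The markers of the cells known to make Igf1 moved: all 8 fibroblast markers fell, their summed level going from between 15520.1 and 16628 CPM in WT to between 12528 and 13023 CPM in BAP1 KO, with Col1a1 from 8351 to 7269.9 CPM, Postn from 276 to 86.5 CPM, Cd34 from 25.7 to 10.9 CPM and Lum from 38.9 to 19.0 CPM. Of 12 macrophage markers 6 rose and 6 fell, and their summed level went from between 14103 and 14413 CPM to between 16433 and 16964 CPM. Lyz2 makes up most of that sum and rose from 8388 to 11027 CPM, so the higher sum reflects this gene and not the markers as a set. Cd14 fell from 149 to 74.8 CPM and Aif1 rose from 30.1 to 43.2 CPM. Changes of less than 1.5-fold made up 4 of the 8 fibroblast calls and 11 of the 12 macrophage calls. Beside these calls stand 61.1% called, 29.0% higher and 32.1% lower, among all genes tested. No marker of either list was at 0 in any library, and the part of macrophages and fibroblasts in the Igf1 level was not tested.

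Igf1r (Entrez 16001; chromosome 7, 67952257 to 68233668, plus strand), the receptor tyrosine kinase for IGF1 and IGF2, stood at 72.3, 74.5, 73.2 and 73.6 CPM in WT libraries 1 to 4 and at 71.5, 75.1, 72.5 and 72.4 CPM in BAP1 KO libraries 1 to 4. The 4 BAP1 KO values spanned the 4 WT values. The log2 fold change was -0.01 ± 0.03 (adjusted p = 0.75), with a 95% interval from 4.3% below to 3.0% above WT. When trends with GC content and gene length were taken out of every library, a setting added after the data were seen, Igf1 and Igf1r were called lower by small amounts, with log2 fold changes of -0.04 (adjusted p = 0.014) and -0.10 (adjusted p = 8.3e-05). Over all 17 settings that test for any change, their adjusted p ran from 0.014 to 0.75 and from 8.3e-05 to 0.98. Per length, the level of Igf1 was 7.69 ± 0.33 times that of Igf1r in WT and 7.60 ± 0.24 times in BAP1 KO (SD, n = 4).

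The largest changes were in 4 binding protein genes, whose promoters are printed here because 2 of them are neighbours that moved in opposite directions. The sequences are the 250 bases before a RefSeq start listed for each gene on GRCm38.p6, read 5′ to 3′ on the strand of the gene. That of Igfbp4 lies inside the gene span given below, so its start is not the outermost one. Capitals mark matches on either strand: GGGCGG is searched as a GC box, TATAAA as a TATA box and CACGTG as an E-box. These are Igfbp2 at chr1:72824230-72824479 (plus strand, the first of 2 starts listed), Igfbp5 at chr1:72874866-72875115 (minus strand), Igfbp4 at chr11:99040994-99041243 (plus strand) and Igfbp6 at chr15:102143936-102144185 (plus strand).
Igfbp2: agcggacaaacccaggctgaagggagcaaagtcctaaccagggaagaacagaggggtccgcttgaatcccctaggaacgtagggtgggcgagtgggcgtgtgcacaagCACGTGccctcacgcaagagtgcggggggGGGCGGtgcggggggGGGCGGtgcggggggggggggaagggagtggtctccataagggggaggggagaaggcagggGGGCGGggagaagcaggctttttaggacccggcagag
Igfbp5: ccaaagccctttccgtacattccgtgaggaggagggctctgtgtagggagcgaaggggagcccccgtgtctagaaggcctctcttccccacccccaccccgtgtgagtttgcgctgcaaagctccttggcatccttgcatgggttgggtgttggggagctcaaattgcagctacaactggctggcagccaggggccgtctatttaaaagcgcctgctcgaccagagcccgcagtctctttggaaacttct
Igfbp4: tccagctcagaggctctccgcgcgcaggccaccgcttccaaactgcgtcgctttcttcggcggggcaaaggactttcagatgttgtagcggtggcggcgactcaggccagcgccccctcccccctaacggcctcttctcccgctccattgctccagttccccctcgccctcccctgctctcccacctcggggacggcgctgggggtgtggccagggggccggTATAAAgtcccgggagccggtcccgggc
Igfbp6: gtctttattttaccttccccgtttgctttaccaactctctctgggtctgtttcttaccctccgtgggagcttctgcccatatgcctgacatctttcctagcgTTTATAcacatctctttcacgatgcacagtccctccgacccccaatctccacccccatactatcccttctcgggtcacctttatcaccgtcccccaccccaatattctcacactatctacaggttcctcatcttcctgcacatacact
The Igfbp2 window held 3 GC boxes and 1 E-box, the Igfbp4 window 1 TATA box ending 22 bases before the start, and the Igfbp6 window 1 TATA match far from the start, 142 bases before it. In windows of the same length, 32.7% of the 32851 promoters in the table held a GC box, 12.4% a TATA box and 6.0% an E-box. None of these 4 windows held the forkhead letters GTAAACA (3.2% of all promoters) or the YY1 letters GCCATNTT (3.9%), searched because FOXK and YY1 proteins are known partners of BAP1; this says only that the letters are not in these windows. CpG dinucleotides numbered 14 in Igfbp2 (11 at its other listed start), 10 in Igfbp5, 22 in Igfbp4 and 7 in Igfbp6, against a median of 6 over all promoters. A link between CpG number and the changes was not tested. The table held 9 of the 10 members, without Pappa. Beyond these 4, the count was 42 CpG for Igf1r, 32 for Igfbp3, 26 for Igfbp7, 5 for Igf1 and 2 for Pappa2. The windows of Igfbp3, Igf1 and Pappa2 also lie inside their gene spans.

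Igfbp2 (Entrez 16008; chromosome 1, 72824480 to 72852474, plus strand), a carrier of both IGFs, was the member that fell most. It stood at 737, 731, 735 and 798 CPM in WT libraries 1 to 4 and at 502, 471, 471 and 515 CPM in BAP1 KO libraries 1 to 4. Every BAP1 KO library lay below every WT library, and WT library 4 lay above the other 3. The mean went from 750.4 ± 32 to 489.8 ± 22 CPM (SD, n = 4), 65.3% of WT, a log2 fold change of -0.62 ± 0.03 (adjusted p = 9.8e-12).

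Igfbp5 (Entrez 16011; chromosome 1, 72858065 to 72874865, minus strand) lies 5.6 kb from Igfbp2, with the 3′ ends of the genes facing each other, and it rose. Its level was low, at 4.70, 4.29, 3.92 and 4.02 CPM in WT libraries 1 to 4 and 7.88, 7.91, 7.91 and 8.37 CPM in BAP1 KO libraries 1 to 4, on 284 to 645 counts. The BAP1 KO libraries were tightly grouped and all above WT. The log2 fold change was 0.92 ± 0.07 (adjusted p = 1.6e-13), or 1.90-fold. IGFBP5 binds matrix as well as IGF and is a substrate of both proteases described below.

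Igfbp6 (Entrez 16012; chromosome 15, 102144186 to 102149512, plus strand) encodes the binding protein that prefers IGF2 to IGF1. It stood at 116, 118, 115 and 131 CPM in WT libraries 1 to 4 and at 234, 218, 226 and 243 CPM in BAP1 KO libraries 1 to 4. The lowest BAP1 KO library was far above the highest WT library. The mean went from 120.0 ± 7.4 to 230.4 ± 11 CPM (SD, n = 4), a log2 fold change of 0.94 ± 0.04 (adjusted p = 2.9e-10).

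Igfbp4 (Entrez 16010; chromosome 11, 99040005 to 99052655, plus strand), whose product holds IGF away from the receptor until PAPP-A cuts it, stood at 608, 635, 617 and 652 CPM in WT libraries 1 to 4. In BAP1 KO libraries 1 to 4 it stood at 884, 860.2, 856 and 883 CPM, all above WT. The log2 fold change was 0.47 ± 0.02 (adjusted p = 4.3e-18), a rise of 1.39-fold with a 95% interval from 34 to 43%.

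Igfbp7 and Igfbp3 moved least among the binding proteins. Igfbp7 (Entrez 29817; chromosome 5, 77349240 to 77408045, minus strand), whose product binds IGF weakly, went from 543, 560.3, 562 and 563 CPM in WT libraries 1 to 4 to 609.5, 597, 567 and 612 CPM in BAP1 KO libraries 1 to 4. The groups did not overlap, but BAP1 KO library 3 lay close to WT. The log2 fold change was 0.10 ± 0.02 (adjusted p = 4.0e-04); with GC and length trends removed it was -0.02 (adjusted p = 0.18), and the adjusted p ran from 1.5e-05 to 0.18 over the 17 settings. Its exons overlap those of Polr2b on the opposite strand over 85 bp, and the library kit does not mark strand. Igfbp3 (Entrez 16009; chromosome 11, 7206086 to 7215498, minus strand), the main carrier of IGF in blood, stood at 1185, 1203, 1214 and 1187 CPM in WT libraries 1 to 4 and at 1174, 1162, 1160.0 and 1194 CPM in BAP1 KO libraries 1 to 4. These values overlapped, with a log2 fold change of -0.03 ± 0.02 (adjusted p = 0.17) and a 95% interval from 4.6% below to 0.58% above WT. Igfbp3 was called lower with library totals alone (-0.05, adjusted p = 0.035) and with GC and length trends removed (-0.03, adjusted p = 0.0495), and its adjusted p ran from 0.035 to 0.36.

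The protease genes moved in opposite directions. Pappa (Entrez 18491; chromosome 4, 65124174 to 65357509, plus strand), the protease that cuts IGFBP4, stood at 53.4, 51.8, 52.7 and 49.3 CPM in WT libraries 1 to 4 and at 65.6, 64.4, 67.5 and 65.3 CPM in BAP1 KO libraries 1 to 4. All BAP1 KO values were above all WT values, and the log2 fold change was 0.34 ± 0.03 (adjusted p = 1.1e-11), or 1.27-fold. Pappa2 (Entrez 23850; chromosome 1, 158711727 to 158960451, minus strand), which cuts IGFBP3 and IGFBP5, had the lowest counts of the members. It stood at 2.41, 2.72, 2.55 and 2.43 CPM in WT libraries 1 to 4 and at 2.02, 2.16, 2.33 and 1.81 CPM in BAP1 KO libraries 1 to 4. The groups lay apart by a small gap, with a log2 fold change of -0.28 ± 0.10 (adjusted p = 0.016). The call was lost without WT replicate 2 (-0.24, adjusted p = 0.06) and without BAP1 KO replicate 4 (-0.22, adjusted p = 0.073), with adjusted p from 0.0057 to 0.073 over the settings. Exons of Pappa2 overlap a noncoding transcript of the same strand, 1600012P17Rik, over 310 bp, so their reads cannot be told apart there.

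**Figure D2:**
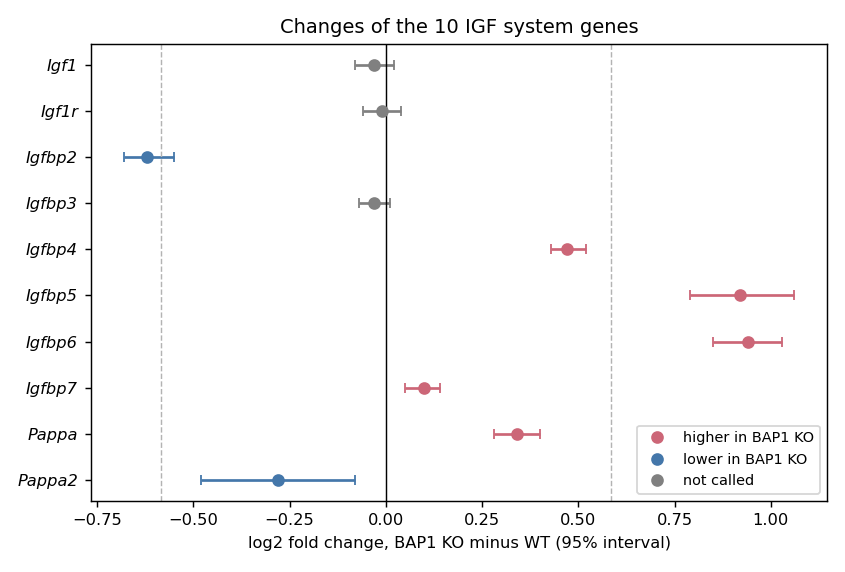
Log2 fold change of each member, BAP1 KO minus WT, with its 95% interval from the edgeR fit; dashed lines mark a 1.5-fold change. Igfbp5 and Igfbp6 lie past the upper line with their whole intervals, Igfbp2 straddles the lower line, and Igf1, Igf1r and Igfbp3 straddle 0.

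Levels of the members were compared with each other only per length, on the authors' size-factor-adjusted RPKM, which divides reads by gene length and depth. In WT the order from the highest was Igfbp2 (501), Igfbp3 (483), Igfbp7 (454), Igfbp4 (299.7), Igfbp6 (91.9), Igf1 (45.6), Igf1r (5.93), Pappa (4.64), Igfbp5 (0.714) and Pappa2 (0.263 RPKM). Of neighbours in this order, only Igfbp2 and Igfbp3 had ranges over the 4 libraries that overlapped. In BAP1 KO the order began with Igfbp7 (489) and Igfbp3 (477), whose ranges overlapped, followed by Igfbp4 (419), Igfbp2 (329.9) and Igfbp6 (178 RPKM). Igf1 followed at 45.1 RPKM. Below it, Igf1r (5.94) and Pappa (5.93 RPKM) overlapped, while Igfbp5 (1.36) and Pappa2 (0.218 RPKM) again came last. Igfbp2 thus went from the top of the order, where it was not separated from Igfbp3, to the fourth place, and Igfbp4 from the fourth to the third.

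The summed RPKM of the 6 IGFBP genes hardly differed, but its makeup did. The sum was 1794, 1821, 1821 and 1884 RPKM in WT libraries 1 to 4 and 1932, 1859, 1841 and 1946 RPKM in BAP1 KO libraries 1 to 4. These ranges overlapped, and the BAP1 KO mean was 104% of the WT mean. The share of Igfbp2 in the sum went from 27.4 ± 0.69% in WT to 17.4 ± 0.34% in BAP1 KO, that of Igfbp4 from 16.4 ± 0.23% to 22.1 ± 0.23%, and that of Igfbp6 from 5.02 ± 0.22% to 9.39 ± 0.25% (SD, n = 4 libraries each). For each of these 3 genes, no share in a BAP1 KO library fell within the range of the WT libraries. The share of Igfbp3 was 26.4 ± 0.66% and 25.2 ± 0.37%, that of Igfbp7 24.8 ± 0.34% and 25.8 ± 0.44%, and that of Igfbp5 0.0391 ± 0.0038% and 0.0720 ± 0.0016%. The ratio of Igfbp6 to Igfbp2 was 0.183 ± 0.0042 in WT and 0.539 ± 0.0080 in BAP1 KO, and that of Igfbp4 to Igfbp2 0.598 ± 0.016 and 1.27 ± 0.037. The summed binding protein level was 40.2 ± 2.4 times that of Igf1 in WT and 42.0 ± 2.0 times in BAP1 KO, again with overlapping libraries. These shares describe RNA, follow from the changes given above and carry no test of their own.

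**Figure D3:**
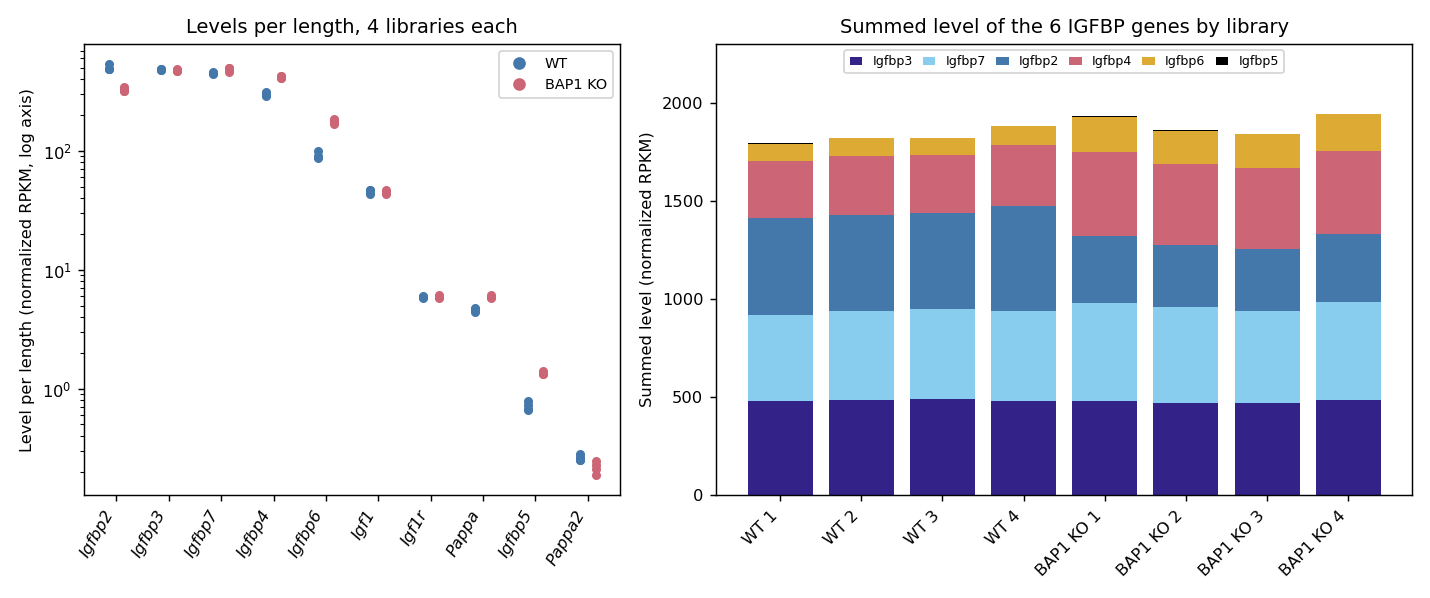
Left, the level per length of each member (normalized RPKM, log axis) in the 4 WT and 4 BAP1 KO libraries. Right, the summed RPKM of the 6 IGFBP genes in each library, stacked by gene: the height lies between 1794 and 1946 throughout, while the Igfbp2 part is smaller and the Igfbp4 and Igfbp6 parts are larger in BAP1 KO.

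Of 4 tested genes for other partners of the binding proteins and proteases, 3 rose (Stc2, Htra1 and Igfals) and Stc1 was not called; over all genes tested 61.1% were called and 29.0% were higher. Stc2, a stanniocalcin that binds and inhibits PAPP-A, stood at 3.05, 2.98, 3.68 and 2.88 CPM in WT libraries 1 to 4 and at 7.87, 7.56, 7.03 and 7.0 CPM in BAP1 KO libraries 1 to 4. The groups were far apart, with a log2 fold change of 1.23 ± 0.08 (adjusted p = 6.0e-15). Stc1, its paralogue, was at 1.27 ± 0.15 and 1.26 ± 0.21 CPM (SD, n = 4; edgeR adjusted p = 0.98, 95% interval from 18% below to 21% above WT). Htra1, a secreted serine protease that can cut IGF-binding proteins, stood at 201, 202, 207 and 209 CPM in WT libraries 1 to 4 and at 385, 373, 364 and 377 CPM in BAP1 KO libraries 1 to 4. All BAP1 KO values lay above WT, with a log2 fold change of 0.87 ± 0.02 (adjusted p = 9.7e-25). Igfals, which forms a ternary complex with IGF and IGFBP3, rose from 0.228 to 0.379 CPM on at most 37 counts (log2 fold change 0.74 ± 0.26, adjusted p = 0.014). That call was lost without WT replicate 2 (0.65, adjusted p = 0.052) and without BAP1 KO replicate 2 (0.61, adjusted p = 0.067). Igfbp1 had 0 counts in each WT library and at most 4 counts in a BAP1 KO library and was not tested, nor were Igfbpl1 and Irs4.

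Among other ligands and receptors, Igf2 stood at 7.42, 4.84, 4.67 and 5.2 CPM in WT libraries 1 to 4 and between 5.16 and 5.31 CPM in BAP1 KO (log2 fold change -0.07 ± 0.12, adjusted p = 0.62). WT library 1 was the high value, and without it the log2 fold change was 0.09 (adjusted p = 0.28). Igf2r, which clears IGF2 from the surface, was at 220.4 and 226 CPM (adjusted p = 0.18) and Ghr, the growth hormone receptor that drives Igf1 in liver, at 70.6 and 67.8 CPM (adjusted p = 0.094). Insr, the insulin receptor, fell from 47.5 ± 1.1 to 41.8 ± 1.0 CPM (SD, n = 4; log2 fold change -0.18 ± 0.03, edgeR adjusted p = 4.3e-06). Insrr, a related receptor near silence, rose from 0.205 to 0.371 CPM on 11 to 41 counts (0.82 ± 0.29, adjusted p = 0.014), and that call was lost without WT replicate 3 (0.71, adjusted p = 0.051) and without BAP1 KO replicate 4 (0.56, adjusted p = 0.11).

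Downstream of the receptor, the adaptor genes Irs1 and Irs2 fell and 6 of 8 tested genes of the mTOR branch rose. Beside the counts by branch given here stand 29.0% higher and 32.1% lower among all genes tested; the branches hold 3 to 12 tested genes each, and no branch was tested as a group. Irs2 stood at 21.6, 22.5, 22.3 and 23.6 CPM in WT libraries 1 to 4 and at 14.2, 13.5, 13.8 and 14.2 CPM in BAP1 KO libraries 1 to 4, a log2 fold change of -0.69 ± 0.04 (adjusted p = 2.4e-15). Irs1 fell from 28.4 ± 0.39 to 22.3 ± 0.31 CPM (SD, n = 4; log2 fold change -0.35 ± 0.03, edgeR adjusted p = 2.6e-10). Both adaptors dock to the activated receptor and recruit PI3K, and in both no BAP1 KO library reached the lowest WT library. Pik3cb, a catalytic subunit of PI3K, fell from 45.7 to 31.5 CPM (-0.54 ± 0.03, adjusted p = 2.5e-15). Of 8 adaptor genes tested 3 rose, 4 fell and 1 was not called; of 12 PI3K and AKT genes 5 rose, 5 fell and 2 were not called; of 8 mTOR branch genes 6 rose, 2 were not called and 0 fell (edgeR; 0 also at an unadjusted p below 0.05 and by DESeq2). The mTOR genes include Mtor, from 78.9 to 104 CPM, and Eif4ebp1, the translation repressor that mTOR phosphorylates, from 109 to 141 CPM; both were named after their values were seen. Of 3 FOXO factors, which AKT inhibits, 2 rose and 1 fell. The 3 IGF2 mRNA-binding protein genes rose, with Igf2bp1 going from 2.01 to 3.47 CPM (0.79 ± 0.10, adjusted p = 3.2e-08).

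Over the whole pathway list of 48 genes, 45 were tested: 23 rose, 13 fell and 9 were not called. That is 80.0% called beside 61.1% of all genes tested, with a median log2 fold change of 0.10 against 0.00. This list too was chosen with earlier results of these data known. Of the 36 called, 30 changed by less than 1.5-fold, and against a 1.5-fold change 2 were higher (Stc2 and Htra1) and 1 lower (Irs2).

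**Figure D4:**
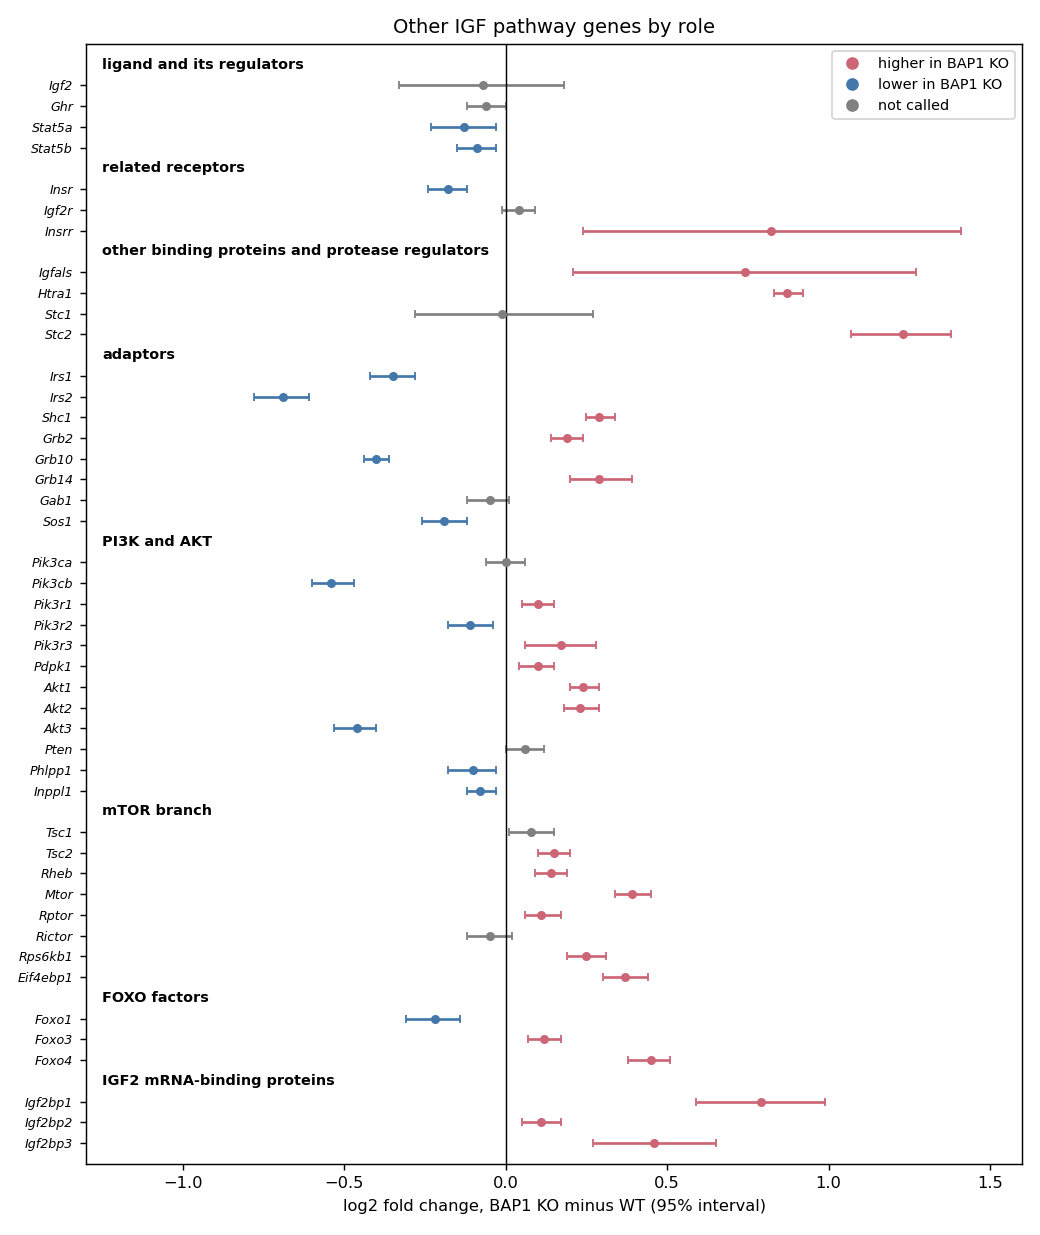
Log2 fold change, BAP1 KO minus WT, with its 95% interval for the 45 tested genes of the pathway list, grouped by role. Stc2 and Htra1 lie far to the right with narrow intervals and Irs2 and Pik3cb farthest to the left, while the intervals of Insrr and Igfals are wide.

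Within a genotype the members did not vary as a block. WT library 4 had the highest WT value of Igfbp2, Igfbp4, Igfbp6 and Igfbp7 and the lowest of Igf1 and Pappa. BAP1 KO library 4 had the highest BAP1 KO value of Igfbp2, Igfbp3, Igfbp5, Igfbp6 and Igfbp7 and the lowest of Pappa2, while Igfbp4 was highest in BAP1 KO library 1. The longest annotated transcript has a GC content of 62.1% for Igfbp2, 60.7% for Igfbp6, 58.8% for Igfbp7 and 55.1% for Igfbp4, against 38.0% for Igf1 and 46.1% for Pappa. It is 52.5% for Igfbp3, 50.3% for Igfbp5, 49.4% for Igf1r and 48.1% for Pappa2. With GC and length trends removed, the standard error of the log2 fold change went from 0.032 to 0.015 for Igfbp2, from 0.043 to 0.021 for Igfbp6 and from 0.025 to 0.014 for Igf1. It hardly moved for Igfbp5 (0.065 to 0.064) and Pappa2 (0.099 to 0.098), and went from 0.019 to 0.013 for Igfbp3, from 0.022 to 0.014 for Igfbp4, from 0.023 to 0.015 for Igfbp7, from 0.026 to 0.022 for Igf1r and from 0.029 to 0.024 for Pappa. The log2 fold changes of Igfbp2, Igfbp6 and Igf1 under that setting were -0.77, 0.80 and -0.04. Why the errors moved was not tested.

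The genes whose log2 CPM over the 8 libraries was most like that of Igf1 were Mtpn (Pearson r = 0.97), Fam126b (0.96) and Zfp526 (0.96), and for Igf1r they were Pus3 (0.94), Dlx4os (0.91) and Rbm34 (0.91). These are descriptions over 8 libraries of 2 genotypes that share depth and GC trends, and they carry no p. They are the best among tested genes with a symbol, leaving out the members, predicted models and Riken clones.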

How the data were processed

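The members and gene lists were chosen with earlier results of these data known. Per the file headers, the deposited counts are reads aligning uniquely to a gene model, and the deposited RPKM are adjusted by size factors. Per the submitters' processing notes GSNAP and GRCm38 were used; no version or annotation is given in the sources used here. Per the labels' protocols libraries were made with a TruSeq RNA v2 kit, which does not mark strand, and read as single ends on a HiSeq4000. Symbols came from RefSeq (GRCm38.p6) for 31049 of 36528 identifiers and from GENCODE vM21 for 78 more.

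Counts of all genes were tested with edgeR 4.0.16 (R 4.3.3): TMM factors (0.9932 to 1.009), filterByExpr, quasi-likelihood F test with robust dispersion, Benjamini-Hochberg adjustment over 16929 genes and a threshold of 0.05. SE is the log2 fold change over the square root of F. CPM use TMM-adjusted totals. RPKM served only for levels between genes. Log2 CPM used a prior count of 2. Alternatives were a test against a 1.5-fold change, leaving out each library, RLE, upper quartile or no factors, no filter or a filter of CPM above 1 in 4 libraries, limma-voom (limma 3.58.1), DESeq2 1.42.0, 1 surrogate variable (sva 3.50.0), and, added after seeing the data, removal of GC and length trends (GENCODE transcripts; 15388 genes). Libraries are numbered in accession order, which pairs nothing. Genes to name were taken from the members; Bap1; fixed pathway genes and those called with an absolute log2 fold change of at least 0.5; the 2 markers per cell type with the highest CPM and called macrophage or fibroblast markers past 0.5; and the 3 genes most correlated with Igf1 and Igf1r.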

Additional observations from a re-analysis of the deposited data

Results flagged for a closer look

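Among 46 groups of 4 libraries, for the members and the named pathway genes, 4 held a library whose gap to its nearest neighbour exceeded the critical share of the range (Dixon's 95% value); chance flags about 1 in 20 such groups. Igfbp2 stood at 798 CPM in WT library 4, where the other WT libraries lay between 731 and 737 CPM; without that library the log2 fold change was -0.59. Igfbp5 stood at 8.37 CPM in BAP1 KO library 4, with the others between 7.88 and 7.91 CPM. Igfbp7 stood at 543 CPM in WT library 1, with the others between 560.3 and 563 CPM. Irs1 stood at 22.7 CPM in BAP1 KO library 4, with the others at 22.1 CPM. In each case the library lay within its own genotype's side of the comparison.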

How the results depend on the processing

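The changes of Igfbp2, Igfbp4, Igfbp5, Igfbp6 and Pappa were called in the same direction in all 17 settings that test for any change. The calls of these 5 members thus did not depend on the settings, but the sizes did in part. The log2 fold change ran from -0.77 to -0.59 for Igfbp2 and from 0.80 to 0.98 for Igfbp6. Removal of GC and length trends altered calls among the small changes. Under it 5 members were called lower, among them Igf1 at -0.04, Igf1r at -0.10 and Igfbp3 at -0.03, while Igfbp7 at -0.02 was not called. Larger changes kept their calls but moved in size, with Igfbp2 going from -0.62 to -0.77 and Igfbp6 from 0.94 to 0.80. The cause was not tested. Igfbp3 was also called with library totals alone (-0.05). Against a 1.5-fold change 2 members were higher and 0 lower (edgeR; 2 were lower against no change, also at an unadjusted p below 0.05, and by DESeq2), 2 pathway genes higher and 1 lower, and 370 and 1014 of all genes; Igfbp2 (-0.62), Igfbp4 (0.47), Igfbp7 (0.10), Pappa (0.34) and Pappa2 (-0.28) were not past it. Without single libraries the number of members lower ran from 1 to 2, the change being Pappa2, whose log2 fold change ran from -0.34 to -0.22. Among genes with no call, signs turned for Igf2 without WT replicate 1 (0.09; range without single libraries -0.14 to 0.09), for Ghr (0.03) and Igf2r (-0.02) with GC and length trends removed, for Stc1 under the same setting (0.10) and without single libraries (-0.09 to 0.07), and for the B cell marker Ms4a1 with limma-voom (0.01), with those trends removed (0.07) and without single libraries (-0.12 to 0.13). Over the settings that test for any change, the other named genes lost a call 6 times and gained one 6 times; against a 1.5-fold change, which asks a stricter question, they lost 19. With CPM over the implied gene length, the ratio of the IGFBP sums (BAP1 KO to WT) moved by less than the spread between libraries. Shares in the IGFBP sum cannot change under that setting, because the factor of a library cancels within it. Leaving out a single library cannot move a mean share, or the ratio of the sums, beyond that spread. Neither therefore says how stable the shares are. Among the members and the pathway genes tested, depth limits Pappa2, Insrr, Igfals and Stc1, on 231 counts per library or fewer. No paired analysis was possible because the labels give no replicate numbers.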
